A study of Mus musculus with 4 samples.

Results

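The ADAMTS proteases (a disintegrin and metalloproteinase with thrombospondin motifs) described here are 10 genes: *Adamts1*, *Adamts2*, *Adamts4*, *Adamts5*, *Adamts7*, *Adamts8*, *Adamts9*, *Adamts10*, *Adamts12* and *Adamts15*. They were taken by symbol from a table of 48587 genes, and each was found there once. The table holds mRNA-seq counts of primary mouse vascular smooth muscle cells (VSMCs), grown out from the descending aorta of young adult C57BL/6J mice after the adventitia and endothelium had been removed. The cells were transduced with a lentivirus that expressed either a hairpin against *Mettl14* (shMettl14) or a nontargeting hairpin (shCTR), so both groups carry a virus, and the comparison asks which transcripts differ when this subunit of the m6A writer complex is depleted. The shMettl14 libraries carry 1 hairpin sequence, so its own effects and those of *Mettl14* loss cannot be told apart. There are 2 libraries per group, marked A and B, and the labels do not say whether a letter stands for a shared culture or animal, and the error given covers only the spread between these libraries.

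ADAMTS proteins are secreted zinc metalloproteinases that cut the large molecules of the extracellular matrix. They are made as inactive proenzymes, are matured by furin-like convertases, and attach to the matrix through thrombospondin repeats and other domains behind the catalytic domain. ADAMTS1, 4, 5, 8, 9 and 15 cleave the proteoglycans versican and aggrecan, which hold water and hyaluronan in the vessel wall. ADAMTS2 removes the amino-terminal propeptide of fibrillar procollagens, ADAMTS7 and ADAMTS12 cleave cartilage oligomeric matrix protein (COMP), and ADAMTS10 binds fibrillin microfibrils. In arteries the family is known for matrix turnover around migrating VSMCs.

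All 10 genes encode a zinc-binding catalytic site, a pattern found in other metalloproteinases too, and its coding sequence is shown because it is the part of the protein that cuts the matrix. Each stretch runs 5′ to 3′ on the coding strand over 11 codons of the transcript used for that gene (GENCODE M21, GRCm38), and the capitals mark the codons of the 3 histidines that hold the zinc ion.
*Adamts1*: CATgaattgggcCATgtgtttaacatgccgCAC
*Adamts4*: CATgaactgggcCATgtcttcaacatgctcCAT
*Adamts5*: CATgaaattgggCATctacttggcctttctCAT
*Adamts8*: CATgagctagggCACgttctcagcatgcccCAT
*Adamts9*: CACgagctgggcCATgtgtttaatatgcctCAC
*Adamts15*: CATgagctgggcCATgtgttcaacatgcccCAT
*Adamts2*: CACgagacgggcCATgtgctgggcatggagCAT
*Adamts7*: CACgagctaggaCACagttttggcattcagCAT
*Adamts12*: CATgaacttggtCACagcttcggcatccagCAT
*Adamts10*: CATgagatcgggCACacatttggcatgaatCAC

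The histidine pattern was searched in the coding sequence of 21504 genes and occurs in 75 of them. Among the ADAMTS genes *Adamts4* and *Adamts15* are the most alike in this stretch, with 30 of 33 bases identical, and *Adamts9* and *Adamts12* the least, with 17 of 33. In all 10 genes an intron interrupts these codons. In *Adamts1*, for example, they lie at chr16:85799191-85799545 on the minus strand, and in *Adamts5* at chr16:85878015-85887826, also on the minus strand, so that the intron of *Adamts5* is far longer.

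*Mettl14*, the gene that the hairpin targets, had 2050 and 2154 counts in shCTR A and B and 546 and 568 counts in shMettl14 A and B. Both shMettl14 libraries were below both shCTR libraries, at 25.5% of shCTR within A and 21.9% within B. Its log2 fold change was −2.08 with a standard error of 0.25, and by edgeR its unadjusted p was 0.00039 and its adjusted p 1.0. No gene tested had a lower unadjusted p by edgeR, so a missing call says little about a gene here. Each library held between 114343653 and 124815868 counts. A count of 0 therefore allows at most 3 counts, or 0.0262 CPM (counts per 1000000 counts of a library) in shCTR B, the smallest library. On the normalized scale this limit is 0.0278 CPM in shCTR B, and it covers counting error only. Markers fixed for VSMCs were all detected, with summed levels of 5772 to 6799 CPM in shCTR and 4442 to 4811 CPM in shMettl14, from *Acta2* (mean 2647 CPM) down to *Des* (1.85 CPM). *Acta2* and *Tagln* made up most of this sum. All but *Lmod1* and *Myocd* were lower with shMettl14 within both letters. *Lmod1* was higher in B (109 and 124 CPM in shCTR and shMettl14) and *Myocd* in A (0.546 and 0.918 CPM). All 7 endothelial markers were detected too, although the endothelium had been scraped off. Their sum was 1832 and 3913 CPM in shCTR A and B and 1722 and 2408 CPM in shMettl14 A and B, led by *Emcn* (mean 1077 CPM), with *Kdr* lowest (6.73 CPM). The 6 leukocyte markers summed to between 11.0 and 14.5 CPM, led by *Lyz2* (4.80 CPM), with *Adgre1* at 0 counts in shCTR B and shMettl14 A. The 6 adventitial fibroblast markers summed to between 668 and 797 CPM, most of it from *Cd34* (467 CPM) and then *Ly6a* (195 to 282 CPM). The other markers of this list were low. *Pdgfra* had 7.93 to 14.5 CPM, *Pi16* 0.472 to 0.969 CPM and *Dpt* 0.146 to 0.488 CPM, while *Lum* (0.211 CPM) was at 0 counts in shCTR B. The part of the lower VSMC marker sum with shMettl14 in the ADAMTS values was not tested. In bulk libraries fewer cells of a type and less RNA per cell cannot be told apart.

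Per length of exon, *Adamts1* was the most abundant member in every library. Its mean over the 4 libraries was 46.1 FPKM (normalized CPM per kilobase of annotated exon), with a range of 43.8 to 50.2. *Adamts2* followed at 21.1 FPKM (18.4 to 23.8), *Adamts5* at 18.3 FPKM (6.94 to 32.0) and *Adamts10* at 10.5 FPKM (8.28 to 12.2). A middle group held *Adamts4* at 3.16 FPKM, *Adamts12* at 3.09 FPKM and *Adamts7* at 2.79 FPKM. The last 3 were *Adamts9* at 0.202 FPKM, *Adamts8* at 0.0584 FPKM and *Adamts15* at 0.0549 FPKM. *Adamts1* stood apart from *Adamts2* over all libraries, as did *Adamts10* from *Adamts4*, *Adamts7* from *Adamts9* and *Adamts9* from *Adamts8*. The other neighbours in this order overlapped in range, namely *Adamts2* with *Adamts5*, *Adamts5* with *Adamts10*, *Adamts4* with *Adamts12*, *Adamts12* with *Adamts7*, and *Adamts8* with *Adamts15*. With the longest transcript in place of all annotated exon bases, *Adamts10* stood at 21.1 instead of 10.5 FPKM and passed *Adamts5*, so the order of these 2 depends on the length used. *Adamts12* likewise passed *Adamts4*, and *Adamts15* passed *Adamts8*.

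**Figure D1:**
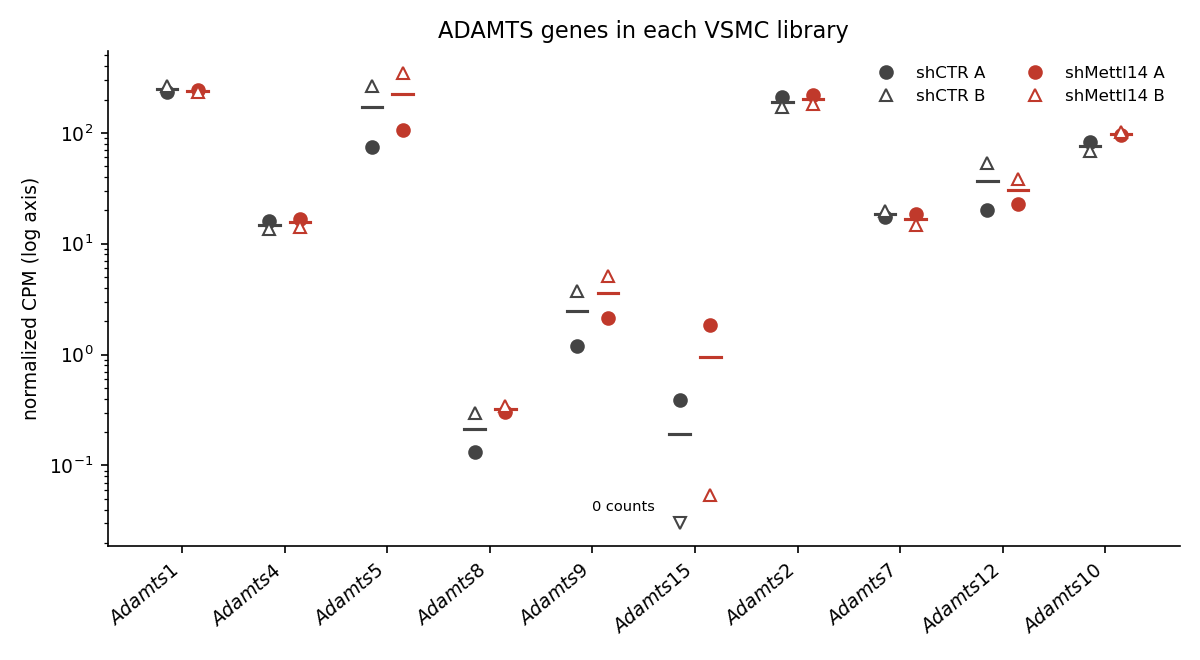
Normalized CPM of the 10 ADAMTS genes in each library on a log axis, in shCTR (grey) and shMettl14 (red), with filled circles for letter A, open triangles for letter B and bars at the group means (n = 2). The open downward triangle at the bottom stands for *Adamts15* in shCTR B, which had 0 counts and is drawn at an arbitrary height. *Adamts1* and *Adamts2* lie close together in all 4 libraries, whereas the letters of *Adamts5* lie far apart in both groups.

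The hairpin comparison used edgeR's quasi-likelihood test over the 18916 genes that passed a filter on low counts, and all 10 ADAMTS genes passed this filter. None of the 10 had an adjusted p under 0.05 by edgeR, where 0% of all genes did, and none had one by DESeq2, where 0.0172% did (5 of 29127 genes). At an unadjusted p under 0.05, with no term for the letters in the fit, edgeR gave 0 of the 10, against 315 genes, or 1.67% of all genes it tested. DESeq2 gave 0 of the 10 at that level, against 442 genes in all. Of all genes tested by edgeR 0.656% were higher at that level and 1.01% lower. An exact permutation test of 2 against 2 libraries cannot give a two-sided p below 0.333, so none was run for single genes. The log2 fold change of shMettl14 against shCTR was above 0 for 7 genes and below 0 for 3. Without a term for the letters, the errors and intervals given for single genes include the gap between letters. In this fit the log2 fold change was smaller than its standard error for 8 of the 10, the exceptions being *Adamts10* and *Adamts15*.

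Among the proteoglycanases, *Adamts1*, which cleaves versican and aggrecan and is on chromosome 16 from 85793827 to 85803113, was level across the libraries. It had 26735 and 28745 counts in shCTR A and B and 28832 and 30219 counts in shMettl14 A and B, which normalized to 235 and 266 CPM and to 243 and 232 CPM. The 4 values overlapped, and the highest was 1.15 times the lowest. edgeR put the log2 fold change at −0.08 ± 0.19 (SE, as for all fold changes given with ±), with a 95% interval from −0.57 to 0.41, and the sign differed between the letters (0.04 in A and −0.20 in B). *Adamts4*, one of the main aggrecanases, on chromosome 1 from 171250421 to 171260637, was about as even. It had 16.1 and 13.6 CPM in shCTR A and B and 16.9 and 14.3 CPM in shMettl14 A and B, with a log2 fold change of 0.07 ± 0.24 and a 95% interval from −0.56 to 0.69. The groups overlapped, and letter B was a little lower than letter A with each hairpin.

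*Adamts5*, the other main aggrecanase, on chromosome 16 from 85856173 to 85901828, was the most variable of the abundant members. It had 8509 and 28754 counts in shCTR A and B and 12477 and 44868 counts in shMettl14 A and B, or 74.9 and 266 CPM and 105 and 345 CPM. Within each letter the shMettl14 library was the higher one, by 1.40-fold in A and 1.30-fold in B. Across letters the gap was larger, with B above A by 3.55-fold in shCTR and 3.28-fold in shMettl14, so the groups overlapped. In the fit without a term for the letters, the log2 fold change of *Adamts5* came to 0.40 ± 0.79. This error includes the gap between letters, and the 95% interval of −1.65 to 2.44 spans both directions widely. The log2 fold change was −0.24 without shCTR A and −0.69 without shMettl14 B, where the remaining libraries no longer balance the letters. *Adamts1* and *Adamts5* are neighbours on the minus strand with 53059 bases between them, and for *Adamts1* the B library was only 1.13-fold above A in shCTR and 0.957 times A in shMettl14.

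*Adamts9*, a versican-cleaving protease on chromosome 6 from 92772699 to 92943492, had the same layout at a low level. It had 136 and 403 counts in shCTR A and B and 256 and 660 counts in shMettl14 A and B, or 1.20 and 3.73 CPM and 2.16 and 5.07 CPM. The shMettl14 library was 1.80-fold higher within A and 1.36-fold higher within B, while B exceeded A by 3.12-fold in shCTR and 2.35-fold in shMettl14. The log2 fold change came to 0.55 ± 0.72. It was −0.04 without shCTR A and −0.18 without shMettl14 B, where the letters are not balanced. Genes on the other strand overlap 11.99% of the exon bases of *Adamts9*, and the sources do not state whether the counting used strand.

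*Adamts15* and *Adamts8* are low-level members of the same class and neighbours on chromosome 9, with 20109 bases between them and on opposite strands. *Adamts15* (30899155 to 30922452, minus strand) had 44 and 0 counts in shCTR A and B and 218 and 7 counts in shMettl14 A and B. The A libraries thus held nearly all of its counts. Within A the shMettl14 library was 4.74-fold higher. Within B, taking 3 counts as the limit for shCTR B gives a ratio of 1.94. This is no lower bound, since it leaves out the counting error of the 7 counts. The fit gave a log2 fold change of 2.27 ± 2.11. Without shMettl14 A it was −1.83, but that fit sets shMettl14 B alone against both shCTR letters. Its sign therefore follows the gap between letters and says nothing on the hairpin. *Adamts8* (30942562 to 30963838, plus strand) had 15 and 32 counts in shCTR A and B and 36 and 45 counts in shMettl14 A and B. Both shMettl14 libraries were above both shCTR libraries, by 2.30-fold within A and 1.17-fold within B, with a log2 fold change of 0.60 ± 0.67. The gap between the groups was narrow, with 0.303 CPM in shMettl14 A against 0.296 CPM in shCTR B, and counting error at such counts exceeds it. Genes on the other strand overlap 10.6% of its exon bases.

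**Figure D2:**
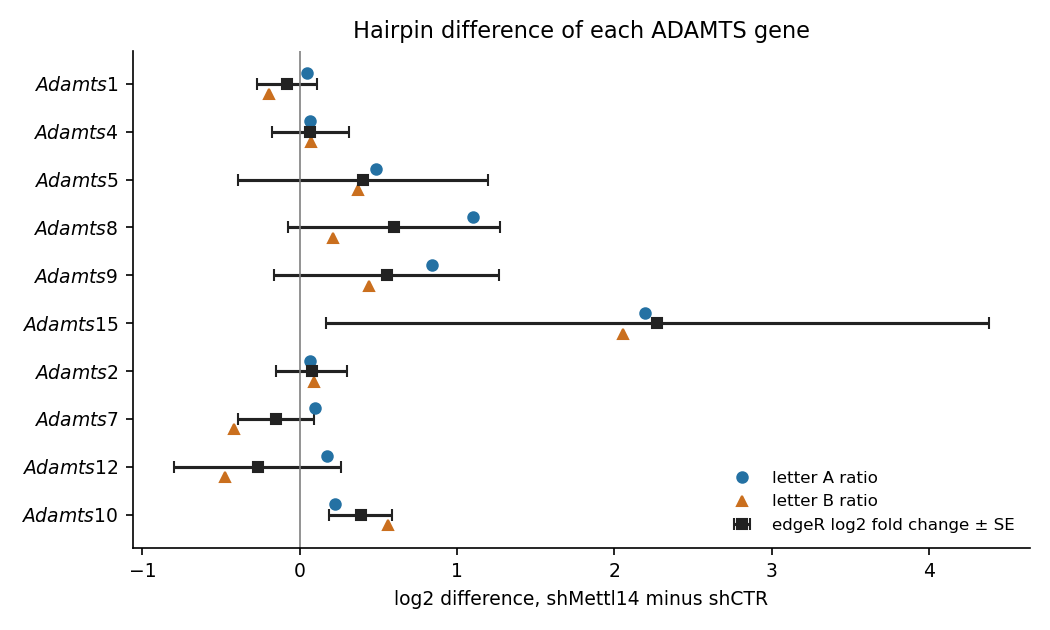
Hairpin difference of each ADAMTS gene on the log2 scale, shMettl14 minus shCTR. Squares are edgeR log2 fold changes with bars of 1 standard error (2 libraries per group), circles the ratio within letter A and triangles that within letter B. The ratios of *Adamts1*, *Adamts7* and *Adamts12* fall on both sides of 0, and those of the other 7 genes lie above it.

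*Adamts2*, the procollagen N-proteinase (chromosome 11, 50602084 to 50807573), had 24115 and 18503 counts in shCTR A and B and 26348 and 23760 counts in shMettl14 A and B. These were 212 and 171 CPM and 222 and 183 CPM, so the groups overlapped, and A was above B with each hairpin. The log2 fold change of *Adamts2* stood at 0.08 ± 0.22, with a 95% interval from −0.50 to 0.65. It was −0.07 without shCTR B or without shMettl14 A, where the letters are not balanced.

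Of the COMP-cleaving proteases, *Adamts7* (chromosome 9, 90163069 to 90208071) had 17.3 and 19.6 CPM in shCTR A and B and 18.6 and 14.7 CPM in shMettl14 A and B. The shMettl14 B library was the lowest of the 4, at 75.0% of shCTR within B, whereas within A it was at 107%. The log2 fold change stood at −0.15 ± 0.24, with a 95% interval from −0.78 to 0.47, and at 0.01 without shMettl14 B. *Adamts12* (chromosome 15, 11064790 to 11349231) had 20.2 and 53.6 CPM in shCTR A and B and 22.8 and 38.5 CPM in shMettl14 A and B. Both B libraries were above both A libraries, and the hairpin ratio was 113% within A and 71.8% within B. The log2 fold change stood at −0.27 ± 0.53, and at 0.60 without shCTR B and 0.07 without shMettl14 A. For both genes the fits with a library left out do not balance the letters.

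*Adamts10*, the fibrillin-binding member (chromosome 17, 33524204 to 33553782), was the abundant gene whose groups did not overlap. It had 9367 and 7377 counts in shCTR A and B and 11439 and 13125 counts in shMettl14 A and B. The normalized means were 75.4 ± 10.02 CPM with shCTR (82.5 and 68.3) and 98.6 ± 3.24 CPM with shMettl14 (96.3 and 101; SD, n = 2 each). The shMettl14 library was 1.17-fold higher within A and 1.48-fold higher within B. *Adamts10* thus had a log2 fold change of 0.39 ± 0.20, with a 95% interval from −0.13 to 0.91, and by edgeR its unadjusted p of 0.112 was the lowest of the 10, with an adjusted p of 1.0.

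Read together, 7 of the 10 genes were higher with shMettl14 within both letters, against 30% of all genes tested, and 0 of the 10 were lower within both letters, against 27.6% of all genes. The members were chosen with earlier results of these data known, so these shares only describe the list and do not test it. Among the 7, *Adamts4* (1.046-fold in A, 1.052-fold in B) and *Adamts2* (1.045-fold and 1.066-fold) hardly differed. *Adamts15* rests in B on 0 counts in shCTR and 7 in shMettl14. The groups did not overlap for 2 genes, *Adamts8* and *Adamts10*, both higher, where 14.7% of all genes were higher and 13.3% lower in this way. For *Adamts8* this rests on a narrow gap, 0.303 CPM in shMettl14 A against 0.296 CPM in shCTR B. The median log2 fold change was 0.23 over the 10 genes and 0.01 over all genes tested. By class, 5 of 6 proteoglycanases, *Adamts2* and *Adamts10* had a log2 fold change above 0, and both COMP-cleaving proteases had one below 0. With a library left out, which leaves the letters unbalanced, 8 of the 10 genes changed sign at least once, and *Adamts8* and *Adamts10* did not. With all 4 libraries in the fit, the sign changed for *Adamts1* with library totals alone and for none of the other 9 genes under the alternatives tried.

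The letters separated some of these genes more than the hairpins did. Using log2 CPM with a prior count of 2, 3 of the 10 genes differed by over 1 between letters in the same direction with both hairpins, against 8.56% of all genes tested. *Adamts5* was higher in B by 1.83 in shCTR and 1.72 in shMettl14, and *Adamts9* was higher in B by 1.63 and 1.23. *Adamts15* went the other way and had a difference of −4.57 in shCTR and −4.71 in shMettl14. *Adamts12* was higher in B by 1.40 in shCTR and 0.75 in shMettl14, and *Adamts8* by 1.07 and 0.18. For *Adamts1*, *Adamts2*, *Adamts4*, *Adamts7* and *Adamts10* no gap between letters exceeded 0.34 on this scale, the largest being that of *Adamts7* in shMettl14. The sum of endothelial markers was also higher in B than in A with each hairpin (3913 against 1832 CPM and 2408 against 1722 CPM). Most of this gap came from *Emcn*, with 649 and 2099 CPM in shCTR A and B and 484 and 1077 CPM in shMettl14 A and B, while *Tie1* was lower in B with both hairpins (171 and 136 CPM, 158 and 135 CPM). Some VSMC markers differed between letters too. *Myh11* was lower in B, with 338 and 101 CPM in shCTR A and B and 233 and 75.0 CPM in shMettl14 A and B. *Myocd* was higher in B, with 0.546 and 7.10 CPM in shCTR and 0.918 and 6.60 CPM in shMettl14. The VSMC marker sum was lower in B in shCTR (6799 and 5772 CPM) and higher in shMettl14 (4442 and 4811 CPM). The part of any cell type in the levels of *Adamts5* and *Adamts9* was not tested.

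**Figure D3:**
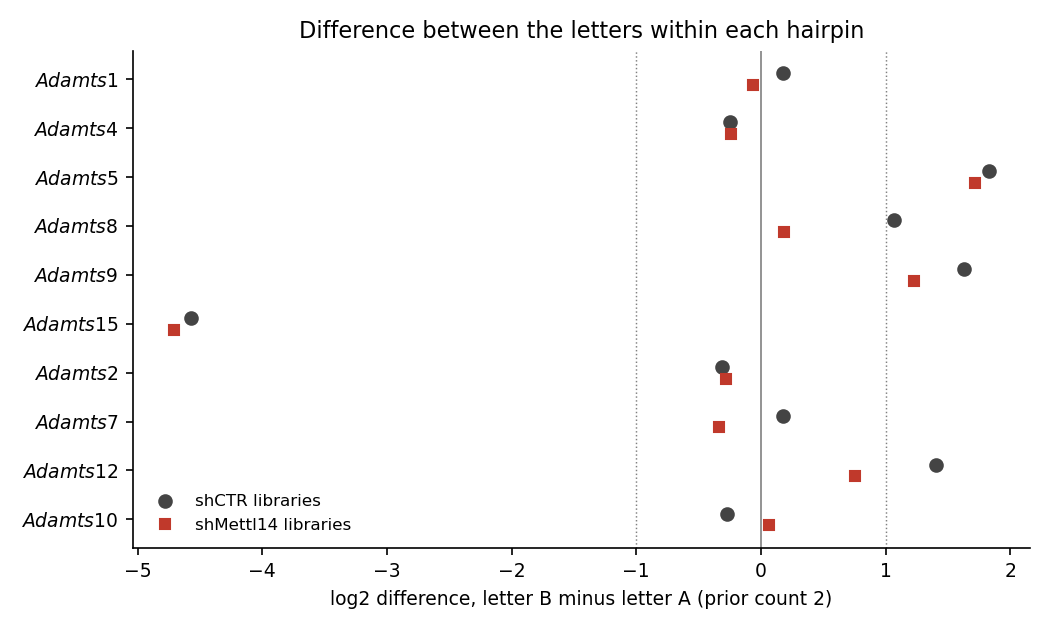
Difference between the letters for each ADAMTS gene, B minus A in log2 CPM with a prior count of 2, in the shCTR libraries (circles) and the shMettl14 libraries (squares), each point from 1 library per letter. Dotted lines mark differences of 1. *Adamts5* and *Adamts9* lie beyond 1 above 0 and *Adamts15* below −4 with both hairpins.

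Between letters the family's summed level moved mainly with *Adamts5*. Between hairpins *Adamts5* rose too, from 6.94 to 9.74 FPKM in A and from 24.7 to 32.0 FPKM in B. *Adamts1* went from 44.4 to 45.8 FPKM in A and from 50.2 to 43.8 FPKM in B. The 10 genes together reached 92.2 and 113 FPKM in shCTR A and B and 99.9 and 117 FPKM in shMettl14 A and B, and took between 0.0647% and 0.0973% of each library's counts. *Adamts1* made up 48.2% and 44.6% of the summed FPKM in shCTR A and B and 45.8% and 37.5% in shMettl14 A and B. The share of *Adamts5* was 7.53% and 21.9% in shCTR A and B and 9.75% and 27.4% in shMettl14 A and B. The share of *Adamts5* thus differed more between letters than between hairpins, and within each letter the *Adamts5* share was higher with shMettl14.

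**Figure D4:**
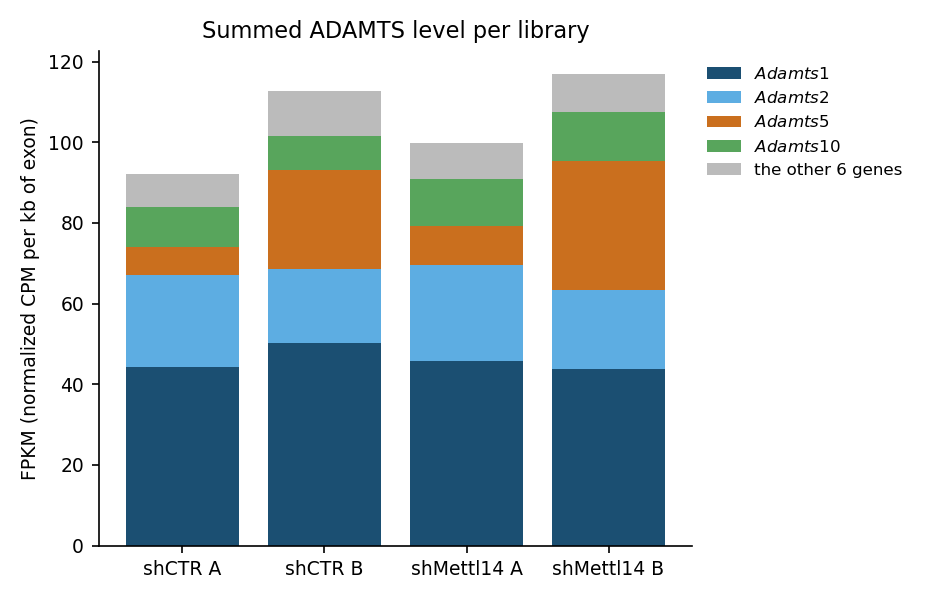
Summed level of the 10 ADAMTS genes in each library in FPKM (normalized CPM per kilobase of annotated exon), stacked by gene, with no error bars since each bar is 1 library. The *Adamts5* part grows from 6.94 to 24.7 FPKM between shCTR A and B and from 9.74 to 32.0 FPKM between shMettl14 A and B, while the *Adamts1* part stays between 43.8 and 50.2 FPKM.

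The remaining genes of the family were mostly scarce. Of 9 further ADAMTS genes 5 passed the filter, 0 had an unadjusted p under 0.05 by edgeR, and their median log2 fold change was −0.18. *Adamts14*, another procollagen N-proteinase, was the highest, with 6.30 and 18.6 CPM in shCTR A and B and 7.57 and 26.6 CPM in shMettl14 A and B, so that B was well above A with each hairpin. *Adamts6*, a relative of *Adamts10*, had 4.24 and 7.96 CPM in shCTR A and B and 4.74 and 5.45 CPM in shMettl14 A and B. *Adamts13*, *Adamts16*, *Adamts19* and *Adamts20* had at most 6 counts in any library. The 7 genes for ADAMTS-like proteins, which have the thrombospondin repeats without the protease, all passed the filter, with 0 at an unadjusted p under 0.05 and a median log2 fold change of 0.0023. *Adamtsl3* led them at 161 and 171 CPM in shCTR A and B and 203 and 155 CPM in shMettl14 A and B. *Adamtsl4*, a fibrillin-binding protein, followed at 158 and 39.7 CPM in shCTR and 138 and 50.9 CPM in shMettl14, a gap between letters in the direction opposite to *Adamts5*.

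Of 13 substrates 12 passed the filter, 5 with a log2 fold change above 0 and 7 below 0 (median −0.13), and 2 had an unadjusted p under 0.05 by edgeR, with an adjusted p of 1.0 for both. *Col3a1*, a fibrillar collagen whose propeptide ADAMTS2 can remove, had 620 and 480 CPM in shCTR A and B and 822 and 955 CPM in shMettl14 A and B. Both shMettl14 libraries were above both shCTR libraries (log2 fold change 0.69 ± 0.23). *Bgn*, the small proteoglycan biglycan, had 6181 and 6973 CPM in shCTR A and B and 4777 and 4726 CPM in shMettl14 A and B. Here both shMettl14 libraries were the lower ones (log2 fold change −0.47 ± 0.18, unadjusted p = 0.0496 by edgeR), and of the 10 alternatives without a block only RLE factors kept the p under 0.05. *Thbs1*, the most abundant substrate, had 10910 and 14280 CPM in shCTR A and B and 11860 and 11380 CPM in shMettl14 A and B, with overlapping groups. *Vcan* and *Acan*, the versican and aggrecan genes that give the proteoglycanases their name, were added after their values were seen. *Vcan* had 41.4 and 64.6 CPM in shCTR A and B and 51.7 and 64.3 CPM in shMettl14 A and B (log2 fold change 0.13 ± 0.29). *Acan* had 76.9 and 61.1 CPM in shCTR A and B and 63.0 and 23.9 CPM in shMettl14 A and B (log2 fold change −0.67 ± 0.49), where shMettl14 B was far below the other 3 libraries.

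Among 8 inhibitors and clearance receptors 7 passed the filter (median log2 fold change −0.23), and *Timp4* alone had an unadjusted p under 0.05 (0.0401 by edgeR, adjusted p = 1.0). It had 2 and 9 counts in shCTR A and B and 29 and 54 counts in shMettl14 A and B, a log2 fold change of 2.69 ± 0.97 at under 0.5 CPM in every library. *Timp3*, the main tissue inhibitor of ADAMTS4 and ADAMTS5, had 2330 and 1206 CPM in shCTR A and B and 2982 and 1158 CPM in shMettl14 A and B, so that its letters differed more than its hairpins. *Timp2*, an inhibitor of matrix metalloproteinases, had 4938 and 3696 CPM in shCTR and 4099 and 3281 CPM in shMettl14.

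All 9 genes for proenzyme activation and for glycosylation of the thrombospondin repeats were tested, with 0 at an unadjusted p under 0.05 and a median log2 fold change of 0.10. *Pcsk6*, a convertase that can mature ADAMTS proenzymes, had 227 and 169 CPM in shCTR A and B and 248 and 171 CPM in shMettl14 A and B. *Pofut2*, which adds fucose to the repeats, had 165 and 175 CPM in shCTR and 148 and 160 CPM in shMettl14. Of 5 further procollagen processing genes 4 were tested, with 0 at an unadjusted p under 0.05 and a median of −0.10. *Bmp1*, the procollagen C-proteinase, had 321 and 294 CPM in shCTR and 315 and 252 CPM in shMettl14, and its enhancer *Pcolce* had 235 and 251 CPM in shCTR and 205 and 195 CPM in shMettl14. For *Pcolce* both shMettl14 libraries were below both shCTR libraries, and for *Bmp1* the groups overlapped.

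**Figure D5:**
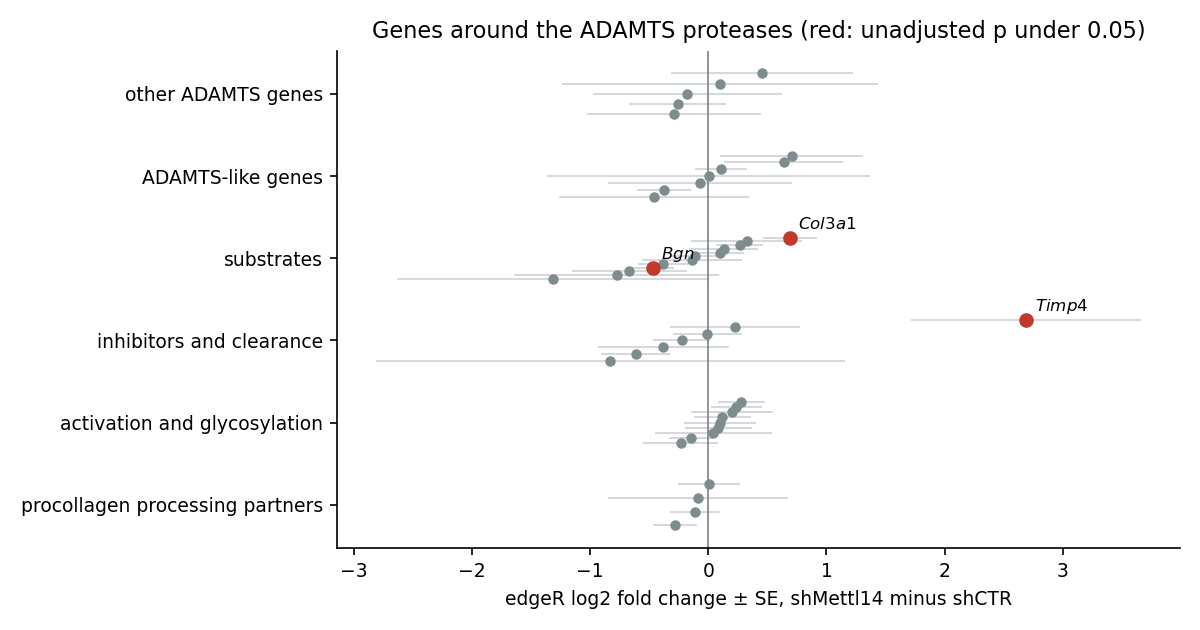
Log2 fold change by edgeR (shMettl14 minus shCTR, bars of 1 standard error, 2 libraries per group) of each tested gene in 6 lists around the ADAMTS proteases. Red points with names are the 3 genes with an unadjusted p under 0.05, *Col3a1* (0.69), *Bgn* (−0.47) and *Timp4* (2.69), none of which passed an adjusted p of 0.05.

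Because METTL14 is part of the enzyme that methylates adenosines, the transcripts were also searched for GGACT, a common form of the m6A consensus, on the transcript strand only. Within 200 bases on either side of the stop codon it occurs in 5 of the 10 ADAMTS genes, against 40.6% of 12438 tested coding genes with a full window. The windows of *Adamts1*, *Adamts2*, *Adamts5*, *Adamts10* and *Adamts12* hold none, and GGACT occurs elsewhere in each of these transcripts. *Adamts7* and *Adamts9* are shown as examples in which it lies in the last 200 coding bases, with GGACT in capitals, 5′ to 3′ on the coding strand.
*Adamts7*, chr9:90197129-90197149, plus strand: gccactgaGGACTgtgaactg
*Adamts9*, chr6:92786913-92786933, minus strand: cctttatgGGACTgggctgtc

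The letters describe the sequence, and methylation was not measured in these libraries.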

How the data were processed

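Stranded poly-A libraries were sequenced, and the authors used STAR (mm10, that is GRCm38) and featureCounts to obtain reads per gene. What they deposited are raw counts of 4 libraries. Strand use in counting and tool versions are not given in the sources used here. Counts were normalized by TMM, filtered by filterByExpr, and compared by the quasi-likelihood test of edgeR 4.0.16 in R 4.3.3 (robust, no block), with Benjamini-Hochberg adjustment over 18916 genes and a threshold of 0.05. The SE of a log2 fold change was its size divided by the square root of F. Letter ratios are differences of log2 CPM (prior count 2). Alternatives were DESeq2 1.42.0, RLE, upper-quartile and no composition factors, no filter, at least 10 counts per library, a replicate block, and each library left out. Gene lengths, places and coding sequences came from GENCODE M21, where 46484 of 48587 symbols matched. Python 3.11.15 did the other steps. The members and lists were chosen with earlier results of these data known. From the other lists the text names genes with an unadjusted p under 0.05, genes over 1 on the log2 scale in both letters, and the 2 highest by CPM. One matched sequence stretch is not reported here.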

Additional observations from a re-analysis of the deposited data

How the results depend on the processing

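Of the 10 ADAMTS genes 0 had an adjusted p under 0.05 in the edgeR and DESeq2 fits tried. Over all genes 0 passed with edgeR, 5 with DESeq2 and 9 with a replicate block, and 0 to 1 with a library left out. At an unadjusted p under 0.05 the count over all genes went from 315 to 1941 with the replicate block and ranged from 78 to 1399 with a library left out. Taking A and B as pairs, the replicate block put 4 ADAMTS genes at that level, all higher: *Adamts5* (log2 fold change 0.43, standard error 0.16), *Adamts9* (0.64, 0.27), *Adamts10* (0.39, 0.16) and *Adamts15* (2.53, 0.69), where 4.72% of all genes were higher. Their adjusted p by edgeR with the block was 0.27 to 0.46. Within a letter, deviations from the group means correlated at 0.578 over genes, but with 2 pairs and no statement on the letters the block stayed an alternative. The related lists had 10 genes at an unadjusted p under 0.05 with the block, where 4.72% of all genes were higher and 5.55% lower at that level. They had 1 such gene with at least 10 counts in every library, where fewer genes were tested, and 3 in the main fit. *Adamts1* changed from −0.08 to 0.034 with library totals alone, a scaling that moved the median of all genes from 0.01 to 0.12. With each library left out in turn the log2 fold change ranged from −0.16 to 0.0098 for *Adamts1*, −0.055 to 0.20 for *Adamts4*, −0.69 to 1.58 for *Adamts5*, −0.18 to 1.59 for *Adamts9*, −1.83 to 9.81 for *Adamts15*, −0.073 to 0.24 for *Adamts2*, −0.33 to 0.013 for *Adamts7* and −0.80 to 0.60 for *Adamts12*. *Adamts8*, at 0.14 to 1.29, and *Adamts10*, at 0.25 to 0.53, kept their sign, but *Adamts8* stood at 0.14 without shCTR A and at 1.29 without shCTR B. With a library left out, the unadjusted p by edgeR stayed under 0.05 for *Col3a1* only without shCTR A and for *Timp4* only without shCTR B. These fits compare unequal numbers of the letters, and the lone library of a group is assumed to vary like the other group. *Adamts15* has no value under the filter of at least 10 counts in every library. Depth limits *Adamts8* and *Adamts15*, whose libraries held 0 to 218 counts.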
